A study of Mus musculus with 6 samples.

Results

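Molecular chaperones of the cytosol and mitochondria, together with the J proteins that work with HSP70, were compared between RNA bound to tagged ribosomes and whole-tissue RNA of the mouse cerebral cortex. The set was chosen by gene symbol: the TRiC subunit genes, the HSP70 genes other than Hspa5, the Dnaja, Dnajb and Dnajc genes, Hsp90aa1, Hsp90ab1, Hspd1, Hspe1 and Hsph1. It took 72 of the 32531 gene symbols in the count tables, and 64 of them had enough reads to be tested, among 16506 tested genes. The rule also takes J proteins of the endoplasmic reticulum (ER) and of vesicles, so the set is wider than the cytosol and mitochondria, and these proteins are described apart.

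The mice were adult and untreated and belonged to a line named Htr4-EGFP/Rpl10a (ES1299). In this bacTRAP line, regulatory sequences of the serotonin receptor gene Htr4 drive ribosomal protein Rpl10a fused to EGFP, and an anti-EGFP antibody pulls down the polysomes of the cells that carry it. The immunoprecipitated RNA (IP, 3 libraries) was compared with RNA of the cortex homogenate before the pull-down (input, 3 libraries). All 6 libraries carried the same transgene, so the comparison contrasts RNA fractions of a single mouse line. The series names pyramidal neurons as its subject. The labels give no sex or exact age, and do not say whether the replicates came from separate animals or pools. The p-values therefore reflect only how much these samples vary, and that variation may be technical.

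The libraries held between 37696125 and 67559533 reads assigned to genes, and 3 reads corresponded to 0.0430 to 0.0817 CPM, the unit in which read counts are scaled to a common library size. Htr4 itself stood at 8.17, 7.65 and 7.82 CPM in the inputs and at 18.6, 22.6 and 18.4 CPM in the IP libraries, 2.52-fold higher. All 18 glial markers examined were lower in IP, with a median log2 fold change of -3.97. The summed CPM of the 6 oligodendrocyte markers went from 1159 to 1259 in input to 137 to 161 in IP, and that of the 6 microglial markers from 41.6 to 48.3 down to 1.70 to 3.09. The 6 astrocyte markers summed to 452 to 495 CPM in input and 93.4 to 117 CPM in IP. Of 8 neuronal markers, 4 were higher, 0 lower and 4 not called, among them Gad1 and Gad2 (log2 0.12 and 0.19). Of 5 endothelial markers tested, 4 were lower. With the replicate number as a block in the fit, the neuronal marker Slc17a7 was also called higher (edgeR adjusted p = 0.00515). The endothelial markers Flt1 and Pecam1 were not called in that fit (0.0725 and 0.0827). Of 3 tested ependymal and choroid plexus markers 2 were higher, Clic6 and Kl, and the groups of Kl overlapped. The summed CPM of the 6 listed was 5.55 to 7.17 in input and 14.3 to 21.9 in IP. Ttr, Folr1 and Tmem212 had too few reads to be tested and went the other way (Ttr from 12, 31 and 4 reads to 0, 4 and 0). Because both fractions are bulk RNA, a smaller contribution of a cell type to the IP and less of a transcript per cell cannot be told apart. The part of other cell types in the chaperone differences was not tested.

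Chaperones bind unfolded or partly folded proteins and keep them from aggregating. HSP70 proteins hold and release short hydrophobic stretches in a cycle driven by ATP; J proteins deliver clients and start ATP hydrolysis, and HSP110 proteins exchange the nucleotide. Newly made actin and tubulin fold inside the ring-shaped chamber of TRiC, while HSP90 acts late on kinases and steroid receptors, and HSP60 with its lid HSP10 folds proteins imported into mitochondria. Neurons rely on these systems for long-lived proteins and for the steady turnover of synaptic proteins. Many chaperone genes respond to heat shock factor, whose binding element is built from inverted repeats of a GAA unit.

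Of the 22 members called higher in IP that had a promoter window, 3 carried 3 or more adjoining GAA units in it, namely Hspd1, Hspe1 and Hsph1. Their sequences are shown for that reason, with that of Dnajb6, which carried them too but was not called. Hspd1 (HSP60) and Hspe1 (HSP10) lie head to head on chromosome 1, and the RefSeq starts at chr1:55087932 (Hspd1, minus strand) and chr1:55088148 (Hspe1, plus strand) enclose 215 bases. RefSeq gives Hspd1 a second start at chr1:55088243, beyond the Hspe1 start, and the window of that start held 0 matches. The stretch at chr1:55087933-55088147 (mm10, printed on the plus strand, GC content 70.2%) holds 4 adjoining units in a run of 18 bases, which is in capitals and contains 2 overlapping matches to the motif of 3 units. The run stands 126 bases from the first Hspd1 start and 71 bases from the Hspe1 start. In the other sequences the capitals mark the 13 matching letters with 7 bases on either side, Hsph1 at chr5:149636281-149636307 (minus strand) and Dnajb6 at chr5:29735845-29735871 (plus strand). The Hsph1 match begins after both RefSeq starts of the gene, by 15 and 36 bases.
Hspd1 and Hspe1: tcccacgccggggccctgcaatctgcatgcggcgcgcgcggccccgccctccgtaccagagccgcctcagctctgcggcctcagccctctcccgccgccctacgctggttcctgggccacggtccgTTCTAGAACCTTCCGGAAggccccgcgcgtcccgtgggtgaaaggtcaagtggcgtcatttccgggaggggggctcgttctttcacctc
Hsph1: ctgcagaTTCTGGAAAGTTCtcctcag
Dnajb6: gctccgaGAATCTTCCGGAAcgctaga

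The windows ran from 250 bases before to 50 bases after each RefSeq start (GRCm38.p6), and 58 of the 72 members had at least 1. Hspa8, Hsp90aa1 and Hsp90ab1 were among those without a window. The motif of 3 units was GAANNTTCNNGAA, or TTCNNGAANNTTC on the other strand. It was found for 4 of these 58 members (6.90%) and for 0.662% of the 27025 genes with a window. The 4 members rest on 3 distinct sites, since Hspd1 and Hspe1 were counted for the same run. By promoter, 0.603% of all 32851 windows held it. The shorter motif of 2 units, GAANNTTC or TTCNNGAA, which every match of the longer one contains, was found for 16 members (27.6%) and 17.0% of all genes. The stress-inducible HSP70 genes Hspa1a and Hspa1b had 1 match each to the shorter motif and 0 to the longer. A match describes the letters in this window and is not a binding site.

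As a set, the chaperones were more often higher than lower in IP. Of the 64 tested members, 31 (48.4%) rose and 5 (7.81%) fell, at an adjusted p under 0.05 in edgeR's quasi-likelihood test with Benjamini-Hochberg adjustment over all tested genes. Over all 16506 genes, 21.3% rose and 23.4% fell. The members' median log2 fold change was 0.35, against -0.02 over all tested genes. Most rises were modest: the 31 called genes ranged from 1.25-fold to 2.20-fold, with a median of 1.47-fold. All 3 IP libraries lay above all 3 inputs for 35 members (54.7%; 26.5% of all genes) and below them for 8 (12.5%; 29.5% of all genes). A rise of at least 2-fold was called for 3 members (4.69%), close to the 4.42% of all genes. A fall of at least 2-fold was called for 1 member (1.56%), against 15.4% of all genes. The summed CPM of the set was 5867 to 5978 in the inputs and 7415 to 7600 in the IP libraries. Within each sequencing lane, which held 1 input and 1 IP library, the members' median log2 difference was 0.25, 0.35 and 0.45, and the 36 called members had the sign of their call in all 3 lanes. The calls came from these same libraries, so the shared sign is no separate support for them.

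**Figure D1:**
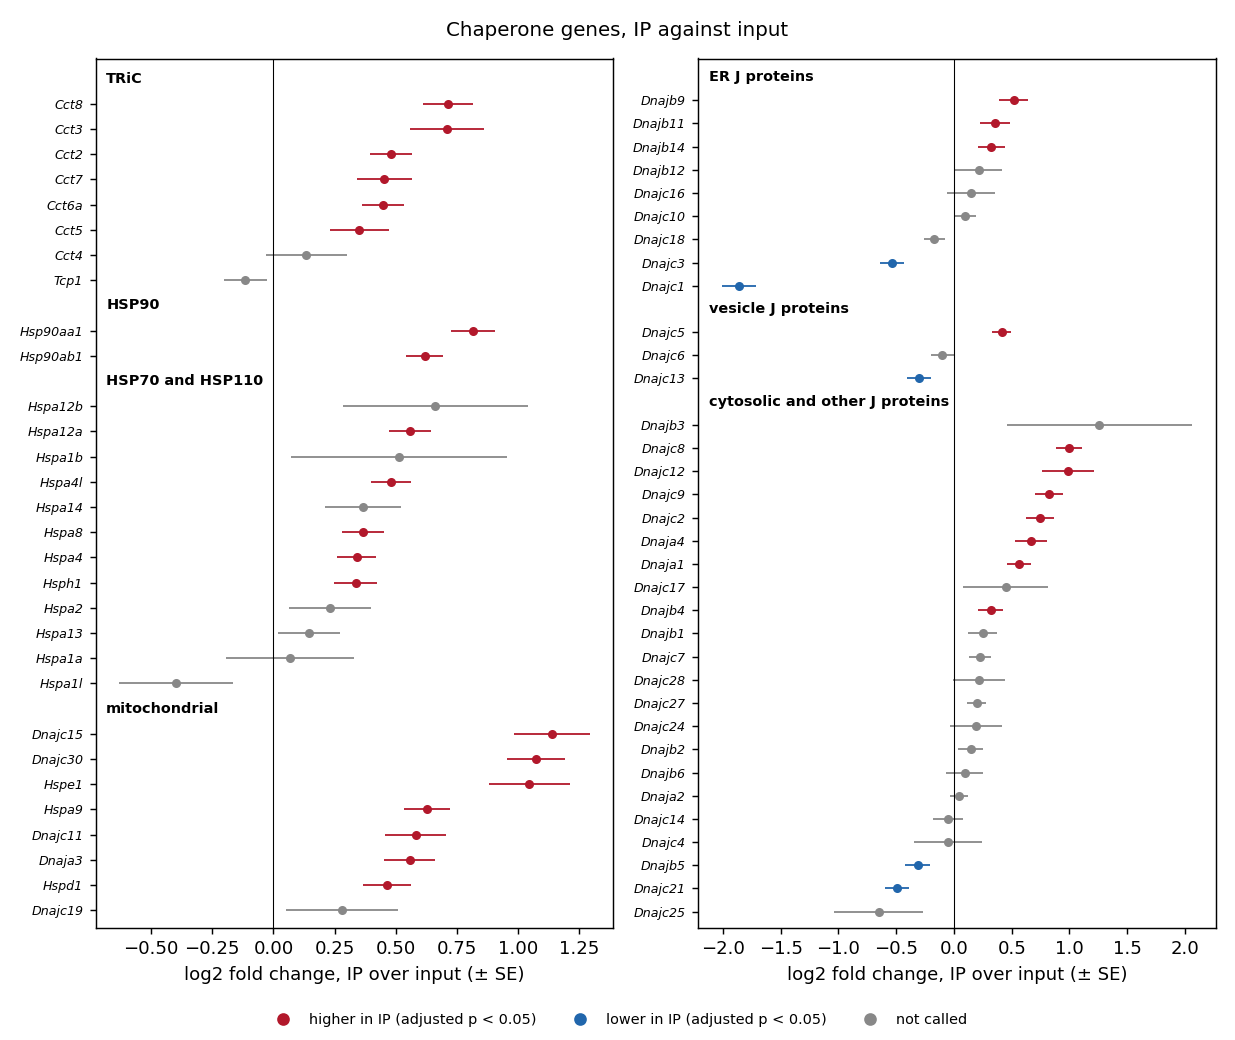
Log2 fold change of IP over input (x axis, ± SE from the fit) for the 64 tested chaperone genes, arranged by role; the 2 panels have different x scales. The 31 genes called higher are red, the 5 called lower blue and the 28 not called grey. Of the 8 genes listed as mitochondrial 7 are red, while Dnajc1 stands far to the left of the other ER J proteins.

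**Figure D2:**
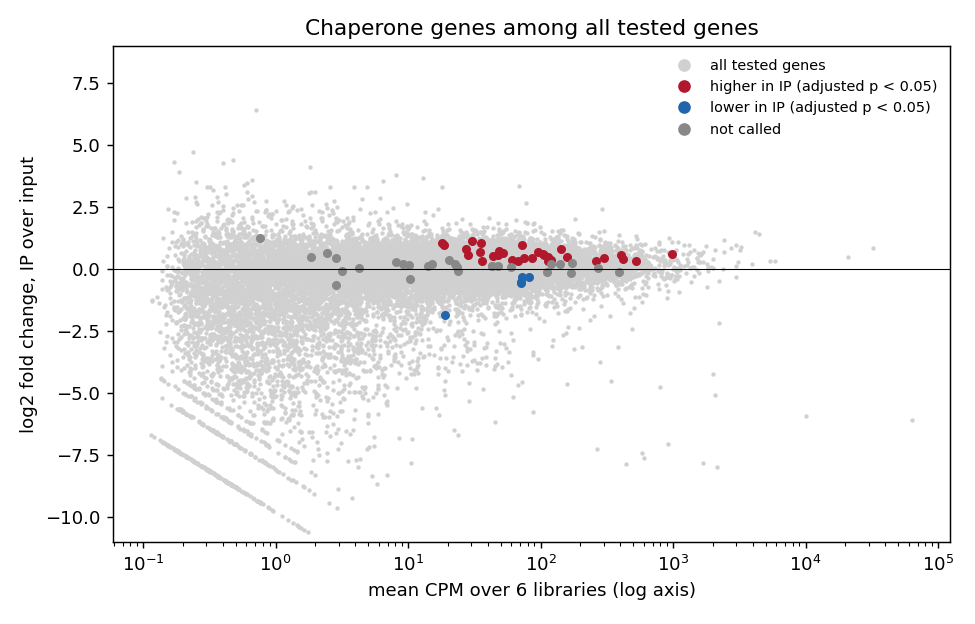
Log2 fold change of IP over input (y axis) against mean CPM over 6 libraries (x axis, log scale) for all 16506 tested genes in grey, with the chaperone genes coloured by call. The chaperone genes lie within a narrow band, mostly a little above 0, while other genes spread to far lower values.

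Both cytosolic HSP90 genes rose. Hsp90ab1, the constitutive HSP90, was the most abundant member on the CPM scale, with 789, 797 and 759 CPM in the inputs and 1151, 1231 and 1215 CPM in the IP libraries. The groups were far apart, and the log2 fold change was 0.62 ± 0.08 (SE; 1.53-fold; edgeR adjusted p = 5.77e-05). Per kilobase of transcript it also stood first among the tested members, at 310 CPM in input and 476 in IP. Both ranks cover only reads assigned to genes, which leave out non-unique alignments. Hsp90aa1, the inducible form, was at 104, 99.8 and 104 CPM in the inputs and at 195, 167 and 179 CPM in the IP libraries. The lowest IP library was well above the highest input, and the log2 fold change was 0.82 ± 0.09 (1.76-fold; edgeR adjusted p = 2.96e-05). Per kilobase Hsp90aa1 reached 31.2 CPM in input and 55.0 in IP, below Hsp90ab1 in both fractions. Of the 50-base words in Hsp90aa1 transcripts, 58.5% also occur in other annotated genes, here 4 pseudogenes, against 4.49% for Hsp90ab1, so the level of Hsp90aa1 is less certain. The HSP90 of the ER, Hsp90b1, is no member of the set; its log2 fold change was 0.06 (edgeR adjusted p = 0.584).

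Among the 12 HSP70 and HSP110 genes, 5 rose, 0 fell and 7 were not called. Those called included Hspa8, the constitutive HSP70 of the cytosol, Hspa12a, a distant HSP70 relative abundant in brain, and all 3 HSP110 genes (Hsph1, Hspa4 and Hspa4l). Hspa8 was at 103, 109 and 101 CPM in the inputs and at 129, 134 and 139 CPM in the IP libraries. The groups were separate, but the rise was small (log2 0.36 ± 0.09; 1.29-fold; edgeR adjusted p = 0.00484). As many as 74.8% of the words of Hspa8 occur in other genes, 12 of them pseudogenes. Non-unique alignments, which were not assigned to genes, took 21.1% to 23.3% of the listed reads in input and 32.9% to 35.7% in IP; the part of this loss in the value of Hspa8 was not tested.

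Hsph1 had the highest CPM of this group, at 446, 477 and 477 in the inputs and 531, 623 and 613 in the IP libraries. The IP libraries were all above the inputs, by 0.34 ± 0.09 on the log2 scale (1.26-fold; edgeR adjusted p = 0.00804). Of the words of Hsph1 0% occur in other genes, against 74.8% for Hspa8, so the order of these genes by level is uncertain. Hspa12a had 320, 327 and 343 CPM in input and 488, 523 and 443 CPM in IP. It showed the largest called rise of the group, 0.56 ± 0.09 on the log2 scale (1.47-fold; edgeR adjusted p = 0.000331). Hspa4 and Hspa4l rose by 0.34 and 0.48 on the same scale.

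The stress-inducible genes were scarce in both fractions. Hspa1a had 3.92, 4.21 and 4.34 CPM in input and 4.04, 3.86 and 5.18 CPM in IP. The groups overlapped (log2 0.07 ± 0.26; edgeR adjusted p = 0.860). Hspa1b had 1.55, 1.05 and 2.01 CPM in input and 1.72, 1.89 and 2.96 CPM in IP, which overlapped as well (log2 0.51 ± 0.44; edgeR adjusted p = 0.375). The standard errors were several times those of Hspa8, so a moderate difference in either direction could not be seen at this depth. Hspa1a and Hspa1b share 66.3% and 62.3% of their words with other genes, mainly each other. The neighbouring Hspa1l, an HSP70 known from testis, shares 71.4%, with the antisense gene Gm10501, Hspa1a and Hspa1b. Non-unique alignments were not assigned to genes, so the levels of these 3 genes are uncertain, and the size of that loss was not tested. Hspa1l gave -0.40 ± 0.23 on the log2 scale, with IP library 1 the lowest at 5.81 CPM and the inputs at 11.1 to 12.2 CPM. It was not called (edgeR adjusted p = 0.185), although it was with a length and GC offset and a replicate block together (adjusted p = 0.0430). Hspa14, which works with J proteins at the ribosome, gave a log2 fold change of 0.36 (adjusted p = 0.0764), and it was called without input replicate 1 (0.49, adjusted p = 0.0474) and with total gene reads (0.0412). The others not called were Hspa2, Hspa12b and Hspa13, at log2 fold changes of 0.23, 0.66 and 0.14.

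**Figure D3:**
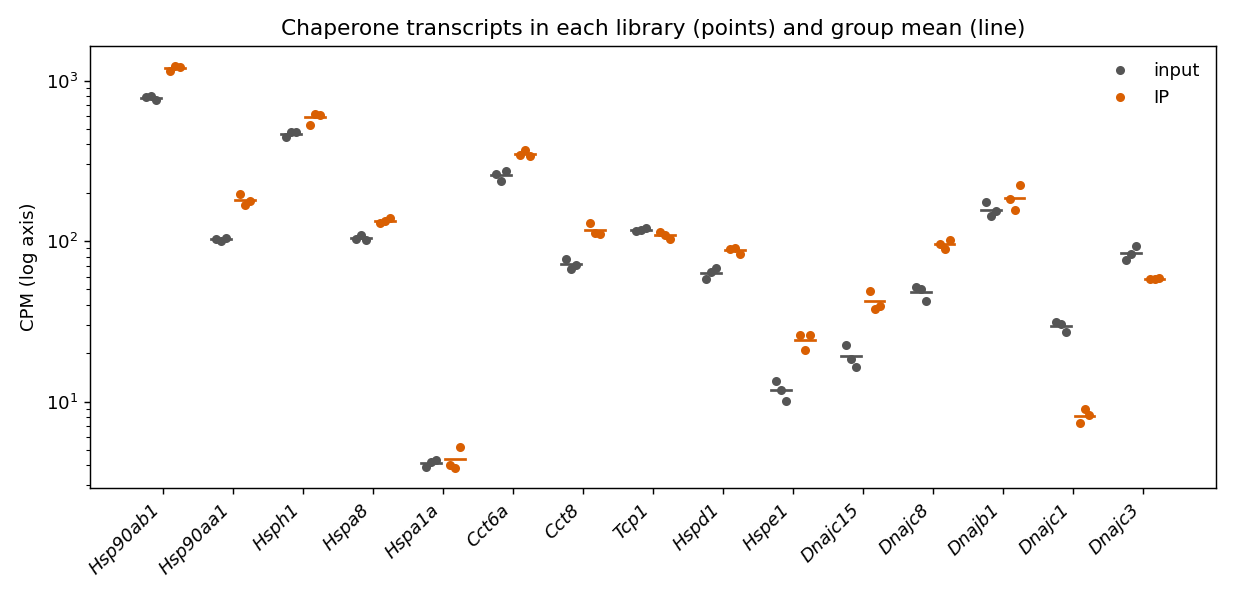
CPM (y axis, log scale) in each of the 3 input libraries (grey) and 3 IP libraries (orange) for 15 chaperone genes along the x axis; each point is a library and each line the group mean. Hsp90ab1, Hsp90aa1 and Hspe1 show separate groups, Dnajc1 and Dnajc3 are separate in the other direction, and Hspa1a and Dnajb1 overlap.

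TRiC is a double ring of 8 subunits, encoded by Tcp1 and Cct2 to Cct8. Of the 8 tested subunit genes, 6 rose, 0 fell and 2 were not called, with a median log2 fold change of 0.45. The second copy of subunit 6 (Cct6b) and Cct8l1 had too few reads to be tested. Cct8 rose most, from 77.7, 66.9 and 71.2 CPM in input to 130, 113 and 111 CPM in IP. The lowest IP library was far above the highest input (log2 0.71 ± 0.10; 1.64-fold; edgeR adjusted p = 0.000187). Cct3 rose by nearly the same amount (0.71 ± 0.15), and Cct2 and Cct7 by 0.48 and 0.45. Cct6a, the most abundant subunit gene, was at 264, 236 and 272 CPM in input and 345, 367 and 338 CPM in IP. That made a log2 rise of 0.45 ± 0.09 with no overlap (edgeR adjusted p = 0.00138). Of the words of Cct6a, 16.8% are shared with Psph.

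The subunits did not all follow. Cct5 rose least of those called (log2 0.35 ± 0.12; edgeR adjusted p = 0.0332). Cct5 lost its call without input replicate 2 (adjusted p = 0.0776), input replicate 3 (0.108), IP replicate 1 (0.0715) or IP replicate 2 (0.0607), and with each length and GC offset, where its adjusted p reached 0.356. Cct4 was at 42.5, 47.6 and 32.1 CPM in input and 51.9, 36.4 and 45.8 CPM in IP. These groups overlapped (log2 0.13 ± 0.17; edgeR adjusted p = 0.543). Tcp1, subunit 1, was at 115, 117 and 120 CPM in the inputs and 113, 108 and 103 CPM in the IP libraries. All its IP libraries lay below the inputs, but by little (log2 -0.11 ± 0.09; edgeR adjusted p = 0.311); 22.2% of its words are shared, mainly with Acat3 and Acat2, and Acat3 overlaps it on the other strand. Per kilobase of transcript, subunit levels in input ran from 13.4 CPM for Cct3 to 105 CPM for Cct6a, although the proteins stand in equal number in the ring. Differences between the subunits' fold changes were not tested.

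The 8 genes listed here as mitochondrial showed the highest share of calls among groups of 3 or more genes. Of them 7 rose, with a median log2 fold change of 0.60. Their summed CPM went from 262 to 272 in input to 417 to 439 in IP. The share depends on how J proteins were assigned. Dnajc4 and Dnajc28 were counted with the cytosolic and other J proteins and were not called (log2 -0.05 and 0.22). The 8 listed genes comprise the HSP60 folding chamber, the HSP70 of the matrix and its J proteins. Hspd1 was at 58.4, 63.9 and 68.0 CPM in input and 89.0, 90.6 and 82.8 CPM in IP. All IP libraries exceeded the inputs (log2 0.46 ± 0.10; 1.38-fold; edgeR adjusted p = 0.00257). Hspe1, its partner across the stretch printed above, was at 13.5, 11.7 and 10.1 CPM in input and 26.0, 20.9 and 25.9 CPM in IP. It rose by 1.05 ± 0.17 on the log2 scale (2.06-fold; edgeR adjusted p = 0.000372), and the groups did not overlap. In the alternative fits listed below, its log2 fold change ran from 0.67 to 1.17, so not all reached 2-fold. Per kilobase the pair was at 26.2 and 15.2 CPM in input and at 36.1 and 31.4 CPM in IP. Both share 44.8% of their words with other genes, and in the GENCODE M21 annotation the genes overlap on opposite strands, so their counts are less certain.

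Hspa9 (mortalin), the HSP70 of the matrix, was at 78.9, 89.4 and 78.5 CPM in input and 127, 122 and 131 CPM in IP, and the log2 rise of 0.63 ± 0.09 separated the groups widely (edgeR adjusted p = 0.000244). Dnajc15, a J protein of the inner membrane, gave the largest called rise of all members. It stood at 22.4, 18.5 and 16.5 CPM in input and 49.1, 37.8 and 39.1 CPM in IP. Every IP library was well above every input (log2 1.14 ± 0.16; 2.20-fold; edgeR adjusted p = 0.000132). Dnajc30, a mitochondrial J protein, followed with 1.07 ± 0.12 (2.10-fold), from 25.2, 21.2 and 22.0 CPM to 48.5, 48.2 and 47.1 CPM. The IP libraries were close to each other and clear of the inputs. Of the words of Dnajc30, 24.3% are shared, with Bud23 and a pseudogene. Bud23 also overlaps Dnajc30 on the other strand, so its count is less certain. Across the alternative fits listed below, the log2 fold change of Dnajc30 ran from 0.71 to 1.17, so not all reached 2-fold. Dnaja3, the main J protein of the matrix, and Dnajc11, a J protein associated with the inner membrane's cristae, rose by 0.56 and 0.58 on the log2 scale. Dnajc19, at 5.32 to 9.68 CPM in all libraries, was not called (log2 0.28; edgeR adjusted p = 0.347).

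The 9 J proteins of the ER were divided: 3 rose, 2 fell and 4 were not called, and their summed CPM overlapped between input (476 to 509) and IP (449 to 485). Dnajc1, a membrane J protein that can bind ribosomes, fell more than any other member. It was at 31.3, 30.4 and 27.2 CPM in input and 7.34, 8.93 and 8.22 CPM in IP. The highest IP library was far under the lowest input (log2 -1.86 ± 0.15; 3.63-fold lower; edgeR adjusted p = 2.88e-06). Dnajc1 lies at chr2:18195654-18392830 on the minus strand (mm10) and overlaps Mllt10 on the other strand; whether counting used strand is not given in the sources used here. Dnajc3 (p58IPK), an inhibitor of eIF2 alpha kinases, went from 76.2, 83.1 and 93.5 CPM to 58.1, 57.6 and 59.0 CPM. It fell by 0.53 on the log2 scale, with no overlap.

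Dnajb9 (ERdj4), a partner of the ER HSP70, rose by 0.52 ± 0.13 on the log2 scale, from 35.5, 33.2 and 39.0 CPM to 56.2, 44.4 and 53.7 CPM. Its groups were separate (edgeR adjusted p = 0.00535). Dnajb11 and Dnajb14 rose by 0.35 and 0.32 with adjusted p of 0.0394 and 0.0403, and both calls were lost when single libraries were left out. Dnajb11 was not called without input replicate 1 (adjusted p = 0.112), input replicate 2 (0.0967), input replicate 3 (0.0717), IP replicate 2 (0.110) or IP replicate 3 (0.110). Dnajb14 was not called without input replicate 1 (0.109), input replicate 2 (0.112), IP replicate 1 (0.0561), IP replicate 2 (0.0935) or IP replicate 3 (0.0510). The most abundant of this group, Dnajc18, was at 172 to 182 CPM in input and 146 to 167 CPM in IP and was not called (log2 -0.17). The ER HSP70 itself, Hspa5, which the rule leaves out, fell by 0.42 on the log2 scale, from 106, 119 and 120 CPM to 88.0, 84.3 and 85.5 CPM.

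Of the J proteins of vesicle traffic 3 were tested: 1 rose, 1 fell and 1 was not called. Dnajc5 (cysteine string protein), which guards SNARE proteins on synaptic vesicles, rose from 341, 367 and 379 CPM to 463, 516 and 466 CPM. The groups were separate (log2 0.41 ± 0.08; 1.33-fold; edgeR adjusted p = 0.00197). Dnajc6 (auxilin), which strips clathrin from vesicles in neurons, was at 367, 384 and 454 CPM in input and 356, 407 and 359 CPM in IP. These overlapped (log2 -0.10; edgeR adjusted p = 0.437). Dnajc13, an endosomal J protein, was at 76.8, 76.1 and 86.4 CPM in input and 64.4, 59.5 and 70.3 CPM in IP. The IP libraries were all lower and the call narrow (log2 -0.30 ± 0.10; edgeR adjusted p = 0.0340). For Dnajc13 the call was lost without input replicate 1 (adjusted p = 0.0603), input replicate 2 (0.0513), input replicate 3 (0.142), IP replicate 1 (0.0709) or IP replicate 2 (0.113), and with a length and GC offset the log2 fold change came to 0.01 (adjusted p = 0.953).

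Of the 22 tested J proteins of the cytosol, nucleus and other sites, 7 rose, 2 fell and 13 were not called, with a median log2 fold change of 0.22. Dnajc8, a nuclear protein found with the spliceosome, rose most among those called, from 51.6, 50.5 and 42.1 CPM to 96.1, 89.6 and 102 CPM. Each IP library far exceeded each input (log2 0.997 ± 0.11; edgeR adjusted p = 2.92e-05). The log2 fold change of Dnajc8 ran from 0.69 to 1.09 over the alternative fits. Dnajc12, a cochaperone of the aromatic amino acid hydroxylases, had a rise of like size and a larger error (log2 0.99 ± 0.23), from 15.9, 10.4 and 11.1 CPM to 21.3, 19.6 and 32.9 CPM. Its groups were separate, with IP library 3 the highest. Dnajc9, a histone chaperone, and Dnajc2, which sits on the ribosome near the nascent chain, rose by 0.82 and 0.74 on the log2 scale.

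The general partners of cytosolic HSP70 were mixed. Dnaja1 rose by 0.56, from 90.5, 79.4 and 89.2 CPM to 134, 114 and 134 CPM, and Dnaja4 by 0.67. Dnaja1 and Dnaja4 share 28.8% and 51.9% of their words with other genes. Dnajb4 rose by 0.32 (edgeR adjusted p = 0.0340) and lost its call without input replicate 1 (0.0781), input replicate 2 (0.158) or IP replicate 1 (0.106). The most abundant gene of the group, Dnaja2, was at 275, 268 and 264 CPM in input and 271, 282 and 279 CPM in IP. The groups overlapped (log2 0.05 ± 0.08; edgeR adjusted p = 0.662). Dnajb1, the heat-inducible partner of HSP70, was at 174, 143 and 153 CPM in input and 182, 155 and 222 CPM in IP. IP library 3 was high and IP library 2 lay among the inputs (log2 0.25 ± 0.13; edgeR adjusted p = 0.135); Dnajb1 was called without IP replicate 2 (0.37, adjusted p = 0.0246) and with total gene reads (0.0396).

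The genes that fell in this group were Dnajc21 and Dnajb5. Dnajc21, which takes part in ribosome biogenesis, went from 84.7, 77.8 and 87.3 CPM to 57.3, 64.6 and 55.4 CPM. All IP libraries were below the inputs (log2 -0.49 ± 0.10; edgeR adjusted p = 0.00213). Dnajb5 went from 79.0, 95.5 and 99.8 CPM to 67.2, 77.1 and 76.1 CPM, also without overlap. For Dnajb5 the call (log2 -0.32; adjusted p = 0.0378) was lost without input replicate 2 (0.120), input replicate 3 (0.175), IP replicate 1 (0.122) or IP replicate 3 (0.0526). Near the threshold on the other side, Dnajc27 and Dnajc7 gave log2 fold changes of 0.20 and 0.23 (adjusted p of 0.0720 and 0.0735), and Dnajc7 was called without IP replicate 2 (0.0450) and with total gene reads as the library size (0.0172). Dnajc27 was called with total gene reads (0.0150) and with each of the 4 length and GC offset fits (0.00635 to 0.0134). Dnajc7 overlaps the myelin gene Cnp on the opposite strand. Dnajb6, whose promoter match is printed above, was at 27.1, 21.2 and 19.5 CPM in input and 25.8, 21.1 and 25.2 CPM in IP, with overlapping groups, and 42.8% of its words are shared.

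The 8 members not tested were close to absent. Dnajb8, Dnajc22 and Dnajc5g had 0 reads in all 6 libraries, below the level of 3 reads that a count of 0 allows. Cct8l1 had 3, 7 and 32 reads in the inputs and 0 in each IP library, and Dnajb7 had 1, 10 and 3 reads in the inputs and 0 in each IP library. Dnajb13 had 1 to 20 reads in input and 0 to 8 in IP, Cct6b 1 to 13 and 0 to 3, and Dnajc5b 0 to 2 and 0 to 5. Several of these genes are known from testis.

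Chaperone proteins work with cochaperones and regulators that the rule does not take, and 50 of 54 such genes in 6 lists were tested. Together 26 rose, 6 fell and 18 were not called, with a median log2 fold change of 0.42. Over all tested genes, 21.3% rose and 23.4% fell. Among 13 HSP90 cochaperones 8 rose and 0 fell. Stip1 (HOP), which links HSP70 to HSP90, was at 97.3, 99.4 and 96.3 CPM in input and 160, 155 and 161 CPM in IP, a log2 rise of 0.70 with groups far apart. Fkbp5, a cochaperone of steroid receptors, rose most (0.78), and the most abundant, Cdc37l1, was not called (0.01; 258 CPM in input and 260 in IP on average). Fkbp4 was just above the threshold (log2 0.36; adjusted p = 0.0511) and was called with the replicate block (0.0465) and without IP replicate 1 (0.00194). Ppid and Ptges3 were called higher but lost their calls when some single libraries were left out. Ppid was not called without input replicate 2 (adjusted p = 0.0966), input replicate 3 (0.0860), IP replicate 1 (0.0769) or IP replicate 2 (0.0816). Ptges3 was not called without input replicate 2 (0.142), input replicate 3 (0.129), IP replicate 1 (0.0980) or IP replicate 3 (0.0629). With a length and GC offset Ahsa1, Ppid and Ptges3 were not called (adjusted p of 0.704, 0.238 and 0.166).

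Among 13 HSP70 cochaperones 6 rose and 2 fell. Hspbp1, a nucleotide exchange factor, rose most at 0.82, from 13.1, 13.5 and 10.6 CPM to 18.5, 22.6 and 24.7 CPM. Its adjusted p was 0.00204 and became 0.0614 with a length and GC offset. Bag1, another exchange factor, rose by 0.81 from a mean of 97.7 to 172 CPM. Over the alternative fits, the log2 rise of Bag1 ran from 0.37 to 0.91 and was called in each. Bag3, which routes clients to autophagy, fell by 1.25 on the log2 scale, from 5.23, 5.62 and 5.67 CPM to 1.04, 2.59 and 3.31 CPM, and was not called without input replicate 1 (adjusted p = 0.0550), input replicate 2 (0.0633) or input replicate 3 (0.0677). Sgtb, the most abundant of the list, fell by 0.26 (404 to 337 CPM on average; adjusted p = 0.0360). The call for Sgtb was lost without input replicate 2 (0.110), input replicate 3 (0.150), IP replicate 1 (0.0814) or IP replicate 2 (0.0974), with total gene reads (0.136) and in all 4 length and GC offset fits (0.0526 to 0.105).

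Of 9 TRiC partners 6 rose and 0 fell, and the 6 that rose are the prefoldin subunits, which hand actin and tubulin to TRiC. Pfdn4 rose most, at 1.28 on the log2 scale, from 18.5, 11.6 and 14.5 CPM to 38.9, 28.9 and 40.4 CPM. Pfdn2 was the most abundant, rising by 0.58 from 53.5 to 79.9 CPM on average. Pfdn5, which rose by 0.55, was not called without input replicate 2 (adjusted p = 0.0671) or input replicate 3 (0.0538). With a length and GC offset the log2 fold change of Pfdn5 was 0.09 (adjusted p = 0.601), and it was not called in any of the 4 offset fits. Pfdn6 was not called in 1 of them, with the replicate block (0.0545). Of 6 other mitochondrial genes 4 rose and 0 fell. Clpp, a subunit of the matrix protease, rose by 0.85, which became 0.37 with a length and GC offset (adjusted p = 0.126). Clpx, the most abundant, and Lonp1 rose by 0.36 and 0.45; both calls were lost with the replicate block (adjusted p of 0.0561 and 0.0503). Clpx was also not called without input replicate 1 (0.0862), input replicate 2 (0.144), input replicate 3 (0.102) or IP replicate 2 (0.175). Lonp1 was not called without input replicate 1 (0.0736), input replicate 2 (0.0973), input replicate 3 (0.105), IP replicate 1 (0.129) or IP replicate 3 (0.0827), nor in any of the 4 offset fits (0.0973 to 0.105). Hscb rose by 0.54, which became 0.19 with a length and GC offset (adjusted p = 0.419), and it was not called in any of the 4 offset fits (adjusted p up to 0.444). It also lost its call without input replicate 2 (0.139), input replicate 3 (0.0804), IP replicate 1 (0.0620) or IP replicate 3 (0.0656). Trap1, the mitochondrial HSP90, gave -0.10 and was not called.

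Of 5 small heat shock proteins tested, 3 fell, 0 rose and 2 were not called. Their log2 fold changes ran from -4.59 to 0.43, so not every gene of the list was lower in IP. Cryab, the most abundant, was at 56.0, 67.4 and 58.5 CPM in input and 9.63, 8.24 and 13.0 CPM in IP, and the groups were far apart (log2 -2.56; 5.89-fold lower; edgeR adjusted p = 7.75e-07). Hspb8 fell by 2.47 on the log2 scale and Hspb7 by 4.59, the last from 11, 38 and 27 reads to 0, 1 and 3 reads. The glial markers were lower in IP as well, as given above. Of 4 heat shock factor genes, Hsf1, the main activator of the heat shock response, rose by 0.68, from 16.2, 25.4 and 23.1 CPM to 35.7, 37.4 and 30.6 CPM. Hsf4 rose by 0.99 at a low level and was not called without input replicate 1 (adjusted p = 0.0590), input replicate 3 (0.0892) or IP replicate 3 (0.0873). With a length and GC offset Hsf1 and Hsf4 had adjusted p of 0.0679 and 0.146. Hsf2, the most abundant, was not called (0.10), and Hsf5 fell to 0, 7 and 5 reads from 31, 46 and 92.

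**Figure D4:**
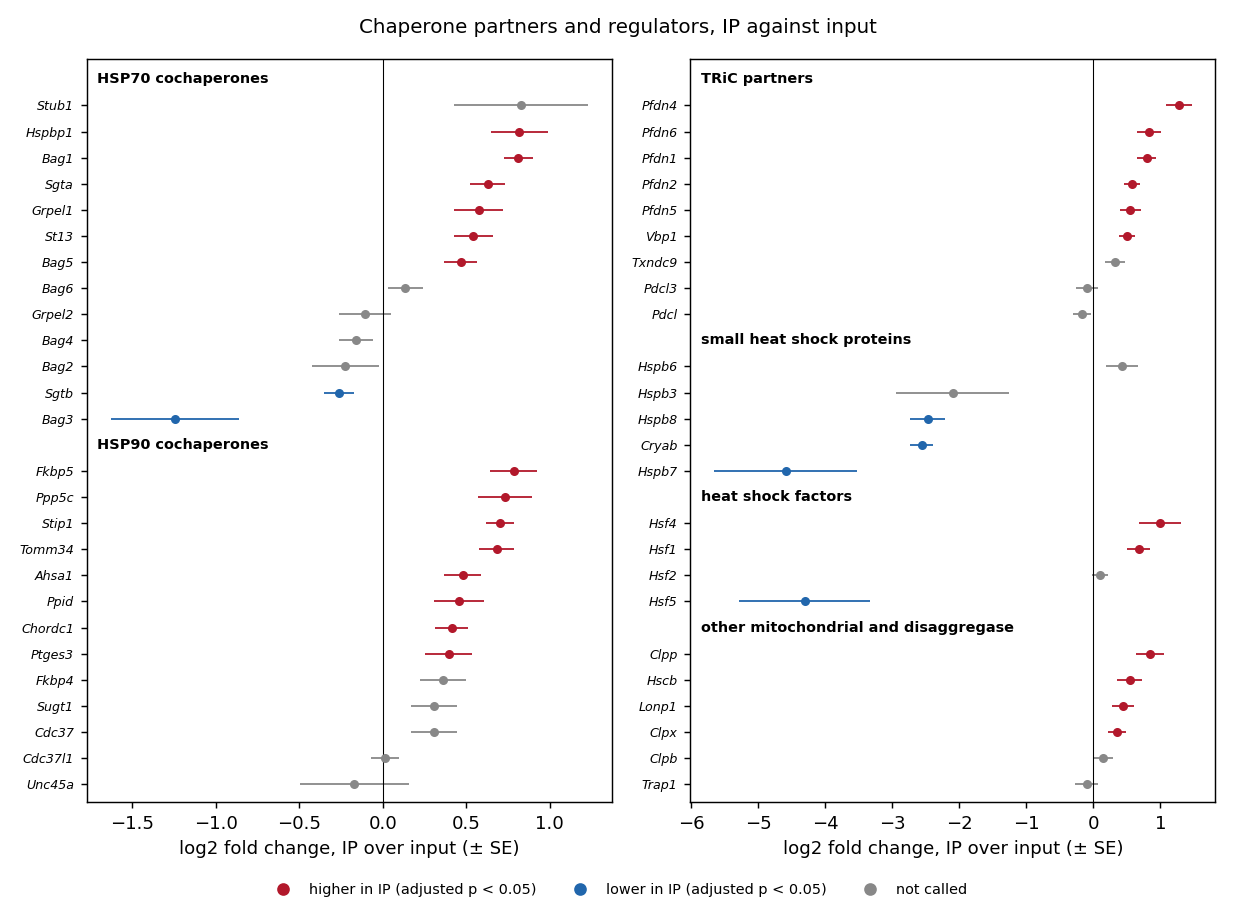
Log2 fold change of IP over input (x axis, ± SE from the fit) for the 50 tested cochaperones, regulators and small heat shock proteins, arranged by list in 2 panels with different x scales and coloured by call as red for higher, blue for lower and grey for not called. All 6 prefoldin genes are red (Pfdn5 was not called with a length and GC offset), and Cryab, Hspb7 and Hspb8 lie far to the left.

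Fold changes in these libraries moved with transcript length. Among all tested genes with a length (87.8%), split into 4 equal classes by length, the class with the shortest transcripts, up to 2022 bases, had a median log2 fold change of 0.35, and the class from 4695 bases up had -0.21. Members were mostly of short to middle length, with 12 in the shortest class, 29 in the second, 10 in the third and 13 in the longest. Their medians were 0.59, 0.35, 0.18 and 0.20 in that order, against 0.13 for all genes of the second class. With an offset for length and GC content in the fit, 30 members rose and 4 fell, with a median of 0.31. Over all 14494 genes tested in that fit, 22.8% rose and 19.4% fell, with a median of 0.03.

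**Figure D5:**
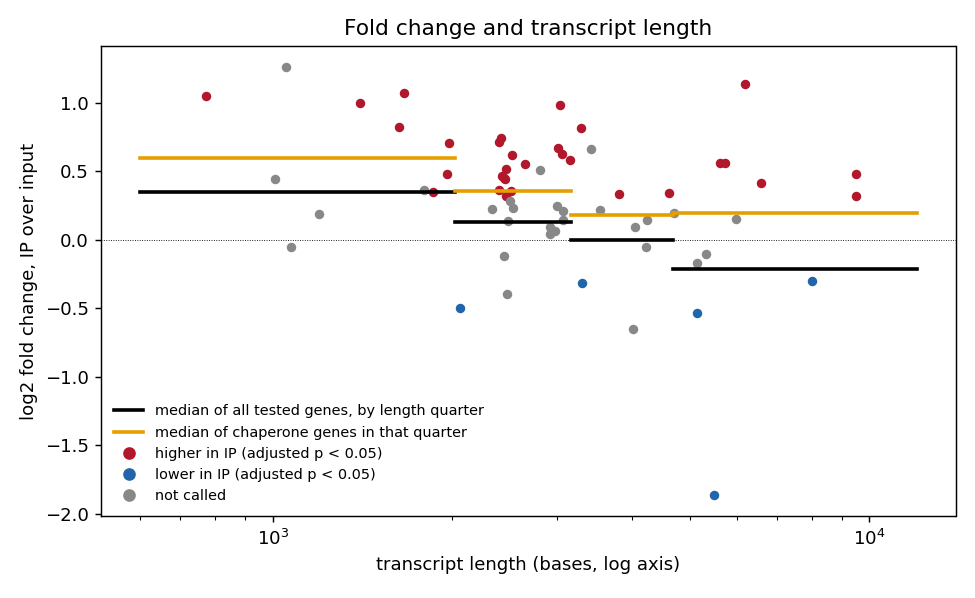
Log2 fold change of IP over input (y axis) against transcript length in bases (x axis, log scale) for the tested chaperone genes, coloured by call, with the median of all tested genes in each of 4 length classes as a black line and that of the chaperone genes as an orange line. The black line falls from 0.35 in the shortest class to -0.21 in the longest, and the orange line lies above it in all 4 classes.

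Reads that HTSeq could not assign to a single gene (ambiguous reads) were 8.12% to 9.83% of the listed reads in input and 1.77% to 1.91% in IP; the part of this gap in the members' values was not tested. Of the 72 members, 25 overlap a gene on the opposite strand that is in the count tables, and 15 share over 20% of their 50-base words with other genes. A group of 37 tested members had neither an overlapping gene in the count tables nor more than 20% shared words. Of these, 17 rose and 4 fell, with a median of 0.32. Some of the 37, such as Dnajb14 and Hspa9, overlap annotated genes that are not in the count tables. Of the other 27 tested members, 14 rose and 1 fell, with a median of 0.45. Over all tested genes, not split in this way, 21.3% rose and 23.4% fell.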

How the data were processed

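RNA sequencing covered 3 libraries of input and 3 of IP, and the sample titles gave the groups. The authors deposited 1 table of raw read counts per gene symbol for each library; per the submitters' processing notes, STAR 2.0.0e, HTSeq and the mm10 build were used. For HTSeq, its version, its strand setting and the gene models were not given in the sources used here. The rows without a gene name (unassigned reads) entered neither library sizes nor tests: no-feature reads were 16.7% to 18.1% of the listed reads in input and 8.60% to 8.92% in IP, and the row named unknown held at most 2 reads.

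Counts were tested with edgeR 4.0.16 in R 4.3.3 (filterByExpr, TMM scaling, quasi-likelihood test by group, two-sided, Benjamini-Hochberg adjustment over all tested genes, threshold 0.05). CPM use TMM-scaled library sizes, and differences within lanes are log2 CPM with a prior count of 2. TMM factors were 0.933 to 0.998 in input and 1.02 to 1.05 in IP. Levels per kilobase use the longest GENCODE M21 basic transcript. Gene positions, overlaps and shared 50-base words come from GENCODE M21 (GRCm38), promoters from RefSeq (GRCm38.p6). The scripts were tested on simulated data.

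The replicate number is the sequencing lane in both groups, and each group has its own index, so index and group cannot be told apart. Deviations of same-numbered samples from the group means correlated at 0.087, 0.061 and 0.043, other pairs at -0.057 to 0.0014; the fit with a replicate block is given where it changes a call. No 2 libraries were copies of each other. Alternatives were RLE factors, total reads, TMM without the members, other filters, DESeq2 1.42.0, limma-voom (limma 3.58.1), the replicate block, a length and GC offset, and leaving out each library; an offset based on means was added after seeing the data.

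The members and lists were chosen with earlier results of these data known. From the lists, 1 gene is not reported here. Per-library values are given for the called members with the largest rise and fall and the most abundant of each role, for Hspa8, Hsp90aa1, Hsp90ab1, Hspd1, Hspe1, Tcp1, Hspa1a, Hspa1b, Dnajb1 and Hsph1, and for others chosen after their values were seen; of each list the most raised, most lowered and most abundant genes are named, others after their values were seen.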

Additional observations from a re-analysis of the deposited data

How the results depend on the processing

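Of the 36 called chaperone members, 30 kept their call in each of the 18 alternatives, and 6 lost it in some (Cct5, Dnajb4, Dnajb5, Dnajb11, Dnajb14 and Dnajc13). Of the 28 not called, 5 were called in some alternative (Dnajb1, Dnajc7, Dnajc27, Hspa14 and Hspa1l). Members called lower numbered 3 with total gene reads as the library size, and 3 to 4 when a library was left out. Members called higher numbered 27 to 35 over all alternatives. Over all tested genes, 15.8% to 25.8% were called higher in these alternatives and 18.3% to 25.9% lower. The replicate block gave 31 higher and 5 lower, the same members as without it. Dnajc13 changed sign with the length and GC offset (0.0091) and with that offset and the replicate block (0.0035). The cause was not tested. With 3 libraries a group, genes at a few CPM such as Hspa1a and Hspa1b had standard errors of 0.26 and 0.44 on the log2 scale, which limits what could be detected for them.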
